A study of Rattus norvegicus with 4 samples.

Results

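Nos3, Edn1 and Ednrb are 3 of the 26313 Ensembl rat gene identifiers in the deposited lists, and they were compared between a large conduit artery and small resistance arteries. They were chosen by name as an endothelial enzyme, a ligand and its receptor, with no limit on a measured value, though earlier results of these data were known. The lists carry no symbols. ENSRNOG00000009348 was taken as Nos3, ENSRNOG00000014361 as Edn1 and ENSRNOG00000010997 as Ednrb, and no table used here pairs Ensembl identifiers with symbols. As a loose check, the gene lengths behind the deposited values were set beside the spans of these genes in the RefSeq annotation of the assembly GRCr8, a later assembly than that of the files. The lengths were 6001 bp against a span of 5889 bp for Edn1, and 29378 bp against 31276 bp for Ednrb. For Nos3 the length was 10156 bp against 20517 bp, a ratio of 0.495. Each length worked out is the smallest that fitted the values, so the length used for Nos3 may be a whole multiple of 10156 bp.

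The study sequenced mRNA of whole arteries from untreated adult male Sprague-Dawley rats. There were 2 samples of thoracic aorta (AO1 and AO2) and 2 of the mesenteric arterial arcade without the superior mesenteric artery, dissected and cleaned of fat (MA1 and MA2). By the study's methods 1 rat gave both AO1 and MA1, and separate rats gave AO2 and MA2, which makes 3 rats in all. The endothelium is a thin inner layer of the wall and was not separated from the muscle and outer layers. The labelled tissues were not checked against marker genes, because the identifiers could not be named.

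In the artery wall, the endothelium makes opposing signals to the smooth muscle. Nos3 encodes the endothelial nitric oxide synthase, whose product nitric oxide raises cyclic GMP in smooth muscle and relaxes it. Edn1 encodes the precursor of endothelin-1, a strong and long-lasting vasoconstrictor released mostly towards the underlying muscle. Ednrb encodes the endothelin B receptor. On endothelial cells this receptor triggers nitric oxide release through Nos3 and takes endothelin-1 out of the circulation, whereas on smooth muscle it can mediate contraction.

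The proximal promoters of the 3 genes are shown for their identity and sequence context, from RefSeq on GRCr8. Each is the 250 bases before the annotated gene start, written 5′ to 3′ on the minus strand. The Nos3 window is chr4:11706582-11706831, the Edn1 window is chr17:22666688-22666937 and the Ednrb window is chr15:87086766-87087015. Capitals mark matches to 4 motifs, searched on both strands, and no match shared a base with another. The GC box was searched as the letters GGGCGG, which the factor Sp1 is known to bind. The TATA box, which places the start of transcription in some promoters, was searched as TATAAA. The motif of the GATA factors was searched as GATAA. The fourth was the AP-1 motif, searched as TGANTCA.
Nos3: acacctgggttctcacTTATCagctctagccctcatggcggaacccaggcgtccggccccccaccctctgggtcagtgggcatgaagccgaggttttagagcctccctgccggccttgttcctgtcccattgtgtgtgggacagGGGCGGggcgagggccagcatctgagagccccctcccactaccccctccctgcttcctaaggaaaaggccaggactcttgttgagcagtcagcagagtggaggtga
Edn1: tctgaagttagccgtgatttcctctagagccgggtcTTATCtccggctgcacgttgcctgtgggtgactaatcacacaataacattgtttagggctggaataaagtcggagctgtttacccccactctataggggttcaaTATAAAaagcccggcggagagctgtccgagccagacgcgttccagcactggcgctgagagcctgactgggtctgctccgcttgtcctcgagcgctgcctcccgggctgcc
Ednrb: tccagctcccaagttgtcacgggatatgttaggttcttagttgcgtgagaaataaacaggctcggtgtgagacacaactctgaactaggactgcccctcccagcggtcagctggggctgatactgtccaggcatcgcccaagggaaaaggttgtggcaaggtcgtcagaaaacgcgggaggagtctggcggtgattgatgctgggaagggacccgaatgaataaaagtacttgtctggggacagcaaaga

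The Nos3 window held a GC box starting at position -106 from the gene start and a GATA motif at -234, and no TATA box. The Edn1 window held a TATA box at -110 and a GATA motif at -214, and no GC box. The Ednrb window held none of the 4 motifs. Over the 33469 RefSeq promoter windows of this length, 30.5% held the GC box, 12.9% the TATA box, 23.5% the GATA motif and 6.34% the AP-1 motif. The GC content was 62.4% for Nos3, 56.4% for Edn1 and 53.2% for Ednrb, against a median of 51.2% over all windows. These are matches of letters, and no binding was measured in these samples.

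The values are RPKM, reads scaled to the length of the gene in kilobases and to the size of the library. With a length fitted to each gene, their steps came within 0.00484 of whole reads for all 20747 genes above 0 in at least 1 sample, which the fitting itself favours. They gave between 72524447 and 82449173 reads on genes per sample. In AO1 and AO2 the 10 genes with the most reads took 43.7% and 35.9% of these reads, against 18.5% and 16.3% in MA1 and MA2. The RPKM were therefore divided by median-of-ratios factors, 0.789 and 0.897 for AO1 and AO2 and 1.22 and 1.16 for MA1 and MA2, and are then called scaled RPKM. The lengths that the RPKM use had a median of 15459 bp, so a level is per kilobase of a length that for many genes is far above that of an mRNA.

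Nos3 had the highest level per kilobase of the 3 genes in every sample and did not separate the tissues. Its scaled RPKM was 4.40 in AO1 and 1.97 in AO2, and 5.04 in MA1 and 1.61 in MA2. The samples of the tissues overlapped fully, with MA1 highest and MA2 lowest. The mean was 3.18 ± 1.72 (SD, n = 2) in AO and 3.33 ± 2.42 (SD, n = 2) in MA. On the log2(scaled RPKM + 0.5) scale, MA minus AO was -0.02, with a standard error of 0.60 and an adjusted p of 0.987 from limma. The 95% interval of this difference ran from -1.64 to 1.59, the widest of the 3 genes. The direction turned with the scaling, and unscaled the difference was 0.40, where the median over all 7203 genes was 0.37. The deposited RPKM of the aortas were 3.47 and 1.77 (AO1, AO2), and those of the mesenteric arteries were 6.15 and 1.87 (MA1, MA2).

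Nos3 differed instead between the samples of a tissue. AO1 was 2.23-fold above AO2, and MA1 was 3.13-fold above MA2. In scaled RPKM, AO1 and MA1, the pair from the same rat, lay 1.15-fold apart, while AO2 and MA2, from different rats, lay 1.22-fold apart. As deposited, AO1 and MA1 were 3.47 and 6.15, and AO2 and MA2 were 1.77 and 1.87. Which pair was closer thus depended on the scaling. Both gaps were large for these libraries. The log2 gap of 0.99 in AO was larger than that of 95.2% of the 7203 genes that reached an RPKM of 1 in 2 or more samples, and the log2 gap of 1.39 in MA was larger than that of 97.2%. Over the 7203 genes, 12 others (0.167%) were higher in AO1 than in AO2 and in MA1 than in MA2 by at least as much as Nos3. Nos3 was among 55 of these genes (0.764%) with replicate 1 over 2-fold above replicate 2 in both tissues, where 242 genes had this in AO and 335 in MA. Over these genes AO1 minus AO2 and MA1 minus MA2 had a Pearson correlation of 0.018 across genes, a description since genes are not independent replicates. With 1 rat shared and all others different, the rat, the dissection and the amount of endothelium in a sample cannot be told apart, nor in bulk RNA can fewer endothelial cells and less mRNA per cell.

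**Figure D1:**
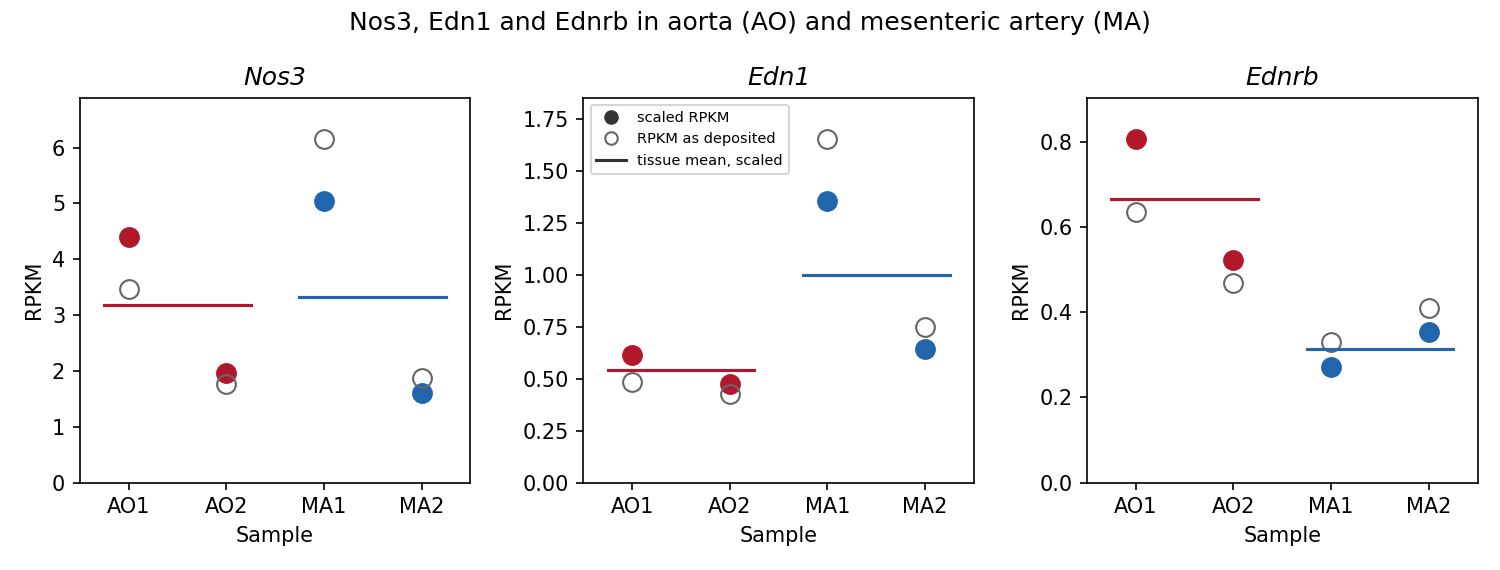
RPKM (y axis, from 0) of Nos3, Edn1 and Ednrb in each sample (x axis), with filled points for scaled RPKM, open points for RPKM as deposited and lines for the mean of the scaled values in aorta (red) and mesenteric artery (blue). Nos3 is high in AO1 and MA1 at 4.40 and 5.04, while Ednrb is higher in both AO samples, at 0.806 and 0.524, than in MA1 and MA2.

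**Figure D2:**
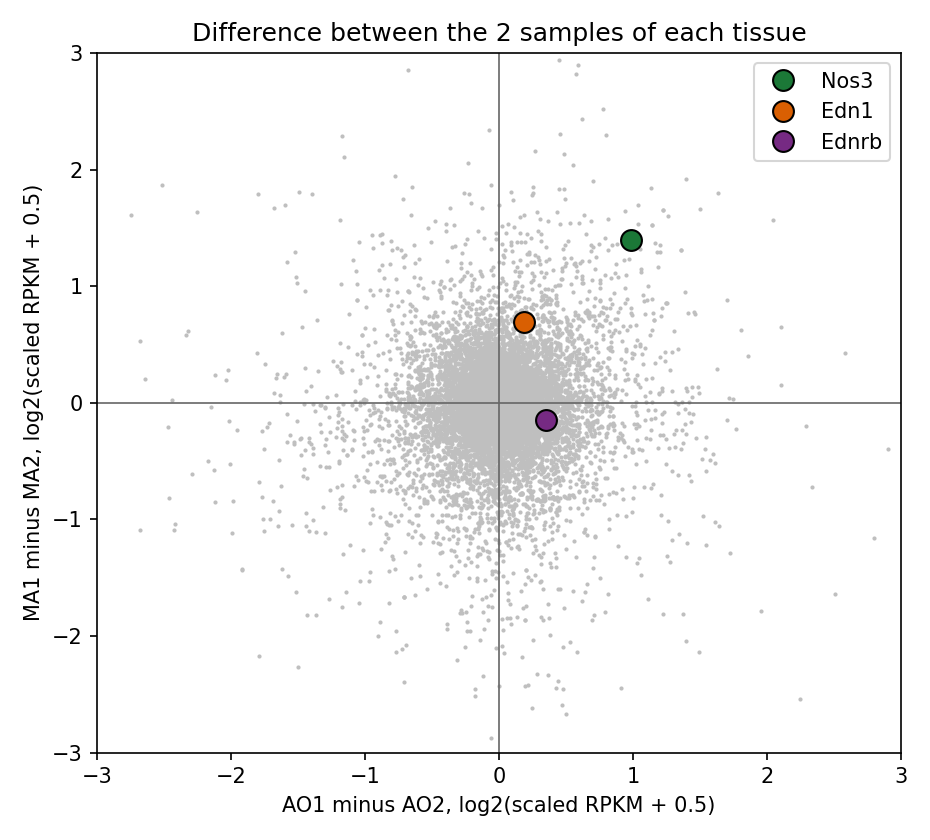
Difference on the log2(scaled RPKM + 0.5) scale between AO1 and AO2 (x axis) and between MA1 and MA2 (y axis) for the 13811 genes that reached an RPKM of 0.1 in 2 or more samples (grey points, of which 27 lie outside the axes), with the 3 genes in colour. Nos3 lies far to the upper right at 0.99 and 1.39, and Edn1 and Ednrb lie closer to the centre. The pseudocount of 0.5 is near the levels of Edn1 and Ednrb and shrinks their gaps. In scaled RPKM, AO1 over AO2 was 1.29 for Edn1 and 1.54 for Ednrb, and MA1 over MA2 was 2.10 and 0.764.

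Edn1, the ligand, was higher in the MA samples, but mainly through 1 of them. Its scaled RPKM was 0.613 and 0.477 in the aortas AO1 and AO2, and it was 1.36 in MA1 and 0.645 in MA2. MA1 stood apart, while MA2 was only 1.05-fold above AO1. This came from 262 recovered reads in AO1 and 399 in MA2, with exact Poisson 95% intervals of 231.2 to 295.7 and 360.8 to 440.1 reads that cover counting error only. Counting error ran from -11.7% to 12.9% for AO1 and from -9.57% to 10.3% for MA2, wider than the scaled gap of 1.05-fold. The 2 read intervals did not overlap, and the deposited RPKM were 0.483 in AO1 and 0.747 in MA2. How close MA2 lies to AO1 thus depends on the scaling. The other samples had 224 reads in AO2 and 827 in MA1.

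The mean scaled RPKM of Edn1 was 0.545 ± 0.096 (SD, n = 2) in AO and 1.00 ± 0.50 (SD, n = 2) in MA, a ratio of 1.84. The log2 difference was 0.48 (95% interval -0.26 to 1.23, standard error 0.27), with an adjusted p of 0.401 from limma. Edn1 reached an RPKM of 1 in MA1 only, so this value is from the fit with a lower filter, which kept 13811 genes that reached an RPKM of 0.1 in 2 or more samples. Within the rat that gave both tissues, MA1 was 2.21-fold above AO1. Without MA1 the difference dropped to 0.14, and without MA2 it was 0.83.

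Ednrb, the receptor, went the other way. Its scaled RPKM was 0.806 and 0.524 in the aortas AO1 and AO2, and it was 0.271 in MA1 and 0.355 in MA2. Both AO samples were above both MA samples, and AO2 and MA2, the closest pair, were 1.48-fold apart. These values came from 1688 and 1205 recovered reads in AO1 and AO2 and from 809 and 1073 in MA1 and MA2. The mean was 0.665 ± 0.20 (SD, n = 2) in AO and 0.313 ± 0.059 (SD, n = 2) in MA, 2.13-fold higher in AO.

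On the log2(scaled RPKM + 0.5) scale the Ednrb difference was -0.51 (95% interval -0.95 to -0.07, standard error 0.16). The unadjusted p was 0.0315 and the adjusted p over 13811 genes was 0.192, both from limma, so Ednrb did not pass the limits. The pseudocount of 0.5 is close to the values themselves and shrinks the difference, which was -0.87 with a pseudocount of 0.1. With limma-voom on the recovered reads, a choice made after seeing the data, it was -1.06 with an adjusted p of 0.145. Without scaling the difference was -0.27, and the 95% interval, -0.63 to 0.08, included 0. Within the rat that gave both tissues, AO1 was 2.98-fold above MA1.

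None of the 3 genes was called at an adjusted p of at most 0.05 with a difference of more than 2-fold, either by limma on RPKM or by limma-voom on the recovered reads. In limma, 1 of the 3 (Ednrb) had an unadjusted p under 0.05, as did 20.9% of the 13811 genes. Among all genes tested, 7.71% of the 7203 and 2.66% of the 13811 genes were called, at the higher and the lower filter. Edn1 and Ednrb, 2 of the 3, had no overlap between AO and MA samples in scaled RPKM, as did 53.9% of the 13811 genes, a share near enough that nothing is read from it for these genes. The lack of overlap held under each of the 4 other scalings tried for both genes, and the Nos3 samples overlapped under each. With 2 samples a tissue, the smallest two-sided p that exact permutation allows is 0.33, and no such test was run on single values.

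**Figure D3:**
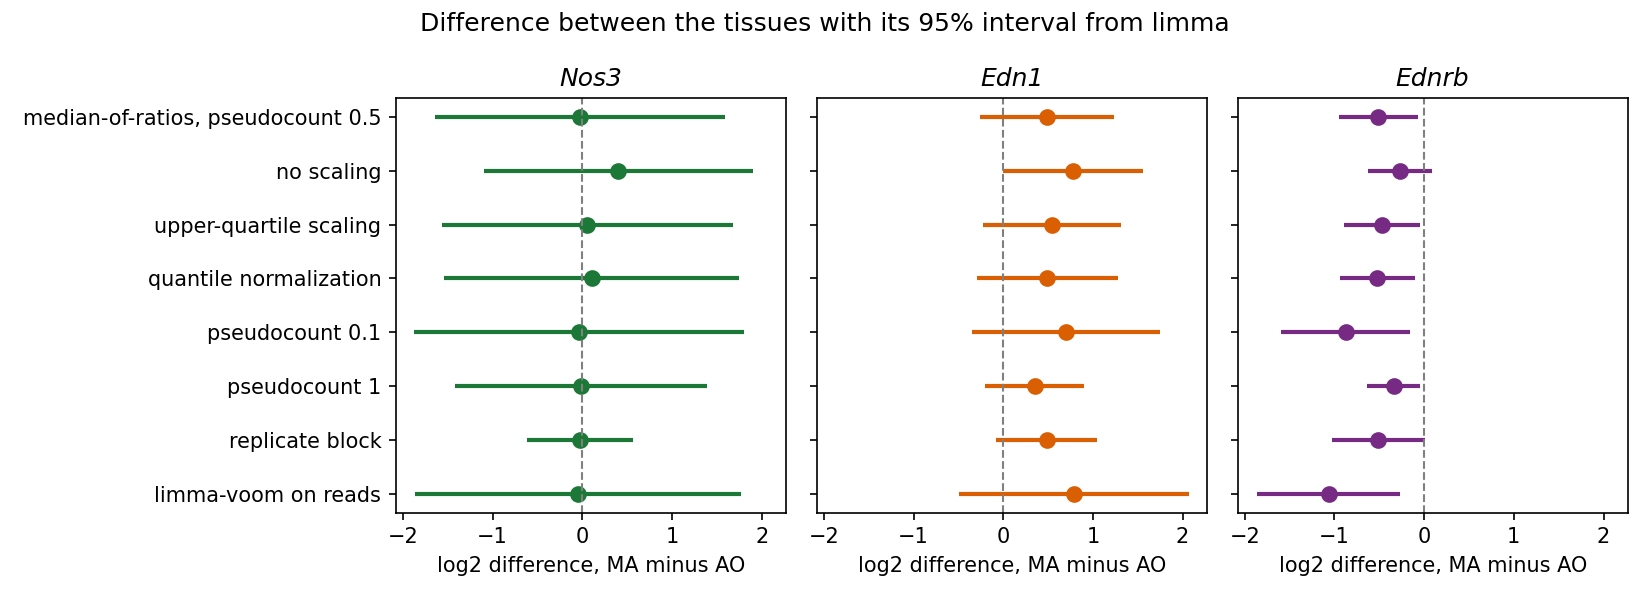
Difference of MA minus AO (x axis, log2) for each gene with its 95% interval (bars) from limma, under the scaling and pseudocount used here (top) and under 7 other settings. The Nos3 intervals all include 0, the Edn1 values lie above 0 with intervals that include 0 in all but the unscaled fit, and the Ednrb values lie below 0 with intervals that include 0 in the unscaled fit and with the replicate block.

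A ratio between genes within a sample does not depend on how samples are scaled to each other. The ratio of Edn1 to Ednrb, ligand over receptor in RPKM, was 0.760 and 0.910 in AO1 and AO2, whereas it was 5.0 in MA1 and 1.82 in MA2. Both MA samples were above both AO samples. This follows from Edn1 being higher and Ednrb lower in both MA samples, and is no separate result. The log2 ratio had a mean of -0.27 ± 0.18 (SD, n = 2) in AO and 1.59 ± 1.03 (SD, n = 2) in MA. The ratio of the geometric means was 3.63-fold higher in MA, a log2 difference of 1.86. The size depended on the samples kept, and the log2 difference was 1.13 without MA1 and 2.59 without MA2, and 0.99 with a pseudocount of 0.5 on scaled RPKM. Whether a ratio lies above or below 1 depends on the lengths used, and by recovered reads alone it was 0.155, 0.186, 1.02 and 0.372 in the same order of samples. The difference between tissues is free of the lengths.

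The ratio of Edn1 to Nos3 was 0.139 and 0.242 in AO1 and AO2, and 0.269 and 0.401 in MA1 and MA2. Both MA samples were above both AO samples, though AO2 and MA1 lay close together, and these groups overlapped once a pseudocount of 0.5 was added. How often ratios of other genes separate the tissues was not worked out, so nothing is read from this separation. The log2 difference of 0.84 compares with SDs of 0.56 in AO and 0.41 in MA. The ratio of Ednrb to Nos3 was 0.183 and 0.266 in AO1 and AO2, and 0.0537 and 0.220 in MA1 and MA2. Here the tissues overlapped, and MA1, with the highest Nos3 and the lowest Ednrb, stood apart from the other 3 samples. Leaving out 1 sample, the log2 difference between tissues ranged from 0.44 to 1.24 for Edn1 to Nos3. For Ednrb to Nos3 it was -1.02 with all samples, -0.0038 without MA1 and -2.04 without MA2. These ratios have 2 values per tissue and were not tested.

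**Figure D4:**
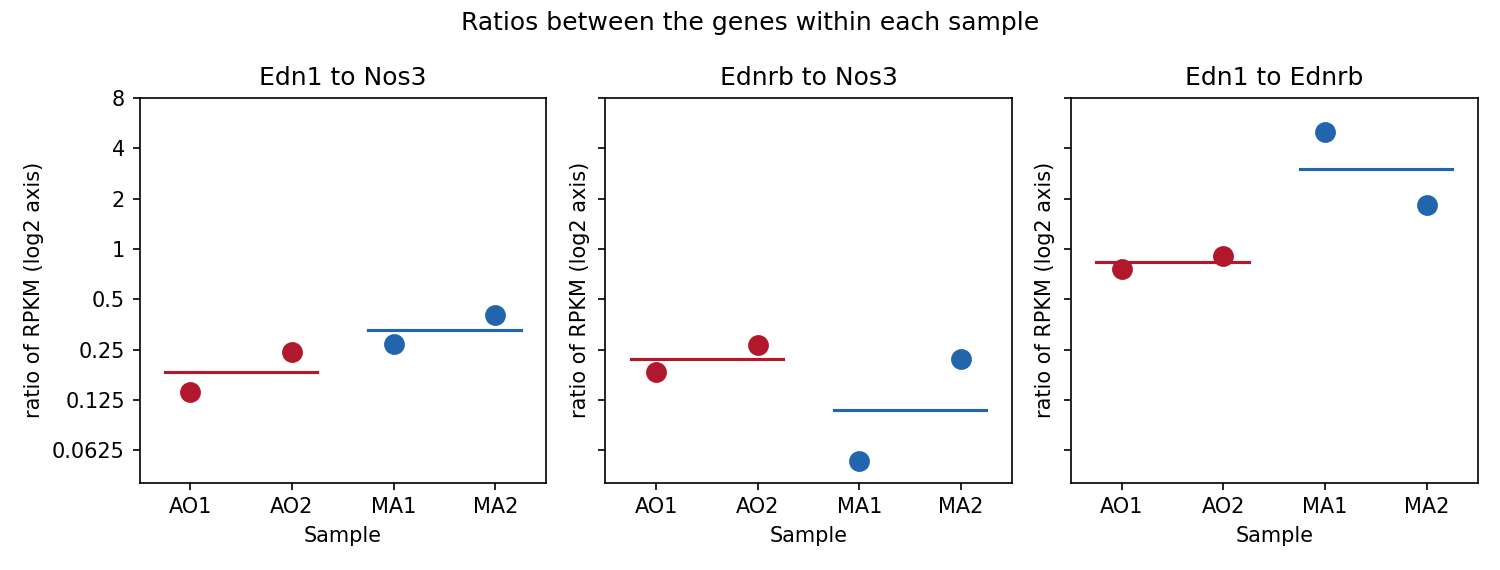
Ratios of RPKM between the genes in each sample (y axis, log2-spaced), with points for samples and lines for the geometric mean of aorta (red) and mesenteric artery (blue). The ratio of Edn1 to Ednrb is below 1 in both AO samples and above 1 in both MA samples, a position against 1 that depends on the lengths used.

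By scaled RPKM, Nos3 stood above 62.1% of the 13811 genes in MA2, 65.4% in AO2, 78.9% in AO1 and 82.9% in MA1. Edn1 stood above 33.7% in AO2 and 58.9% in MA1, with AO1 and MA2 in between at 39.8% and 40.5%. Ednrb stood above 45.7% in AO1 and 36.1% in AO2 but only 20.6% in MA1 and 26.1% in MA2. In AO both samples had slightly more Ednrb than Edn1 per kilobase, and in MA both had less. This order depends on the lengths used. By recovered reads both AO samples and MA2 had more Ednrb than Edn1, with 1073 against 399 in MA2, and MA1 had 809 against 827.

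For each gene, the identifier with the most similar pattern was the one with the smallest Euclidean distance between log2(scaled RPKM + 0.5) centred over the 4 samples. For Nos3 this was ENSRNOG00000004840, at a distance of 0.10 against a median of 1.32 over the 7203 genes, with scaled RPKM of 2.90 and 1.39 in AO1 and AO2 and of 3.45 and 1.05 in MA1 and MA2. The nearest gene lies below the median by construction. Its order of samples, the same as in Nos3 with AO1 and MA1 high, follows from how it was picked. For Edn1 it was ENSRNOG00000047525 at a distance of 0.04, with 0.332, 0.214, 0.902 and 0.364 in the same order of samples. For Ednrb it was ENSRNOG00000032575 at a distance of 0.03, with 11.4 and 9.07 in the aortas and 6.54 and 7.38 in the mesenteric arteries. The last gene was far more abundant than Ednrb, and its likeness holds on the scale with the pseudocount.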

How the data were processed

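The deposited values are RPKM, 1 list per sample. By the study's methods the authors mapped paired-end reads to the Ensembl rat genome using TopHat, left out reads that mapped to more than 2 places, and scaled the reads of each gene to mRNA length and the library. The lengths recovered here, with a median of 15459 bp, were longer than is usual for mRNA. The authors' test, DESeq on read counts, was not run here. Whole reads, lengths and library sizes were worked out from the smallest steps between RPKM (numpy 2.4.6, numba 0.67.0, Python 3.11.15), taking the smallest length that fitted, so a gene's reads may be under-counted by the same factor in all samples, as the Nos3 length may be. The recovery was tested on simulated data. RPKM were scaled by median-of-ratios and taken as log2(scaled RPKM + 0.5), where fold changes of low genes are understated. MA and AO were compared with limma 3.58.1 in R 4.3.3 (eBayes with a trend, no block), with Benjamini-Hochberg adjustment over all 7203 genes that reached an RPKM of 1 in 2 or more samples. Edn1 and Ednrb did not pass this filter and were taken from the fit to the 13811 genes that reached 0.1 in 2 or more. Genes were called at an adjusted p of at most 0.05 and more than 2-fold. The fit was tested on simulated reads. The genes named were the 3 genes and, for each, the identifier nearest in pattern. The genes and lists were chosen with earlier results of these data known. Lists of nitric oxide and endothelin pathway genes and of cell type markers, set by symbol, were not analysed here, because 0 Ensembl identifiers could be paired with symbols. The 2 samples of a tissue came from different rats. Alternatives covered scaling, pseudocount, filter, trend, replicate block, limits and leaving out samples.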

Additional observations from a re-analysis of the deposited data

How the results depend on the processing

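No setting tried brought Nos3, Edn1 or Ednrb past the limits. Adjusted p over the alternatives ranged from 0.429 to 0.994 for Nos3, from 0.141 to 0.68 for Edn1 and from 0.145 to 0.501 for Ednrb. Edn1 stayed higher in MA and Ednrb in AO under 11 other settings, 4 leaving out a sample and limma-voom, added after seeing the data. Only the 4 other scalings and limma-voom could turn the direction. Pseudocounts and left-out samples could not, as the tissues did not overlap. The rest left 0.484 for Edn1 and -0.511 for Ednrb by construction. The log2 difference ranged from 0.136 to 0.832 for Edn1 and from -1.06 to -0.271 for Ednrb. The filter at an RPKM of 1 gives no value for either. Nos3 turned from -0.025 to 0.403 as deposited, 0.057 with upper-quartile scaling and 0.109 with quantile normalization, and ranged from -0.721 to 0.671 when a sample was left out. The lone sample that then represents a tissue is assumed to vary like the other pair. As deposited the median difference over all genes moved too, from -0.05 to 0.37 at the filter of 1 and from 0.01 to 0.27 at the filter of 0.1.

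Of the 555 genes called, 67 were higher in MA and 488 in AO, and without scaling 170 were higher in MA and 260 in AO. The number called was 368 with the filter at 0.1 and 0 of 20747 with no filter, where 3434 had an unadjusted p of at most 0.05. It was 22 without AO1, 33 without AO2, 216 without MA1 and 0 without MA2, where 1460 had an unadjusted p of at most 0.05. The log2 difference of the Edn1 to Ednrb ratio, 1.86, was 0.995 with a pseudocount of 0.5. Why the counts moved was not tested. A pseudocount shrinks ratios of low values by construction. With the replicate block the difference of Nos3 stayed at -0.025 with an interval of -0.613 to 0.563, and 563 genes were called at the filter of 1 but 0 at the filter of 0.1, where 2800 had an unadjusted p of at most 0.05. The replicate numbers pair the samples by rat only for AO1 and MA1, and over all genes the deviations of same-numbered samples had a correlation of 0.018, although 55 genes were over 2-fold higher in replicate 1 in both tissues. Nos3, Edn1 and Ednrb had at least 224 recovered reads in every sample. In reads, the Poisson intervals of Edn1 overlapped between AO1 and AO2 but not between AO1 and MA2.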
